A study of Mus musculus with 8 samples.

Results

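The genes described here encode subunits of RNA polymerases I, II and III and of Mediator. They were taken from a RefSeq table of the mouse assembly GRCm38 as the protein-coding genes whose symbol starts with Polr1, Polr2 or Polr3 followed by a letter, or with Med followed by a digit. The rule found 58 genes, 28 of RNA polymerase and 30 of Mediator, among 21887 protein-coding genes. Polr1f, Polr1g and Polr1h stand in that table under other symbols and so are not among the 58.

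Chromatin immunoprecipitation with sequencing was done in mouse oligodendrocytes, the cells that form myelin in the brain, to map Qki-5 and PPARb across the genome. The differentiated oligodendrocytes came from neural stem cells of an FvB/C57BL6 hybrid strain with introduced PPARb, at passage 7, grown in medium with IGF-1 and triiodothyronine; they gave 4 antibody libraries, for Qki-5, PPARb, the HA tag and the repeat of the RNA polymerase II (Pol II) tail, and 1 input library. The isolated oligodendrocytes came from C57BL6 mouse brains by O4 magnetic beads, at passage 0, with no introduced gene named in the labels; they gave antibody libraries for Qki-5 and PPARb and 1 input library. Each of the 8 groups had 1 library, so replicate spread is unknown throughout and no test was made. Tag directory names in the file headers carry the word merge for the differentiated-cell Qki-5 library and the isolated-cell input, with no statement of which runs or samples these joined. The promoter that drives the introduced PPARb, the age of the mice and any pooling of animals are not given in the sources used here. Sample titles name HA-PPAR, so the HA antibody reads the introduced protein, and no HA library from cells without the tag was analysed here. In these cells the PPARb antibody can read the introduced PPARb as well as the cells' own, and the PPARb peaks do not separate them.

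RNA polymerase I makes ribosomal RNA, RNA polymerase II makes messenger RNA, and RNA polymerase III makes transfer RNA and other short RNAs. Mediator is a large complex that joins DNA-bound factors to RNA polymerase II. Its head and middle touch the polymerase, its tail receives many of the factors, and a kinase module can dock on it. Qki-5 is the nuclear form of Quaking, an RNA-binding protein needed for myelination. PPARb is a nuclear receptor that regulates genes of lipid metabolism. Mutations of several RNA polymerase III subunit genes cause human leukodystrophies in which myelin fails to form.

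A gene was counted as bound in a library when the centre of a peak lay within 1000 bp of either end of the gene, called a boundary peak below. Peak height is the authors' normalized tag count, in tags per 10000000, for a peak 200 bp wide, so heights of different genes refer to the same length of DNA. Where a gene had several boundary peaks in a library, the tallest is given. Library depth ran from 12624236 to 24880851 tags, of which 0.1165% (PPARb, isolated cells) to 4.621% (HA) lay in peaks. The caller's tag threshold came to a height of 7.069 in the PPARb library of isolated cells, where the lowest listed height was 5.98, so a gene with no peak there had none that was detectable at this depth. Boundary peaks at cell type markers, which are no measure of expression, were found at 1 of 8 oligodendrocyte genes for Qki-5 in differentiated cells (Cnp) and at 3 of 8 in isolated cells (Cnp, Mag and Mobp). They were found at 4 and 0 of 5 neuronal genes, at no gene of the 5 for astrocytes or the 5 for microglia, and at 0 and 2 of 5 endothelial genes (Cldn5 and Flt1). PPARb boundary peaks in differentiated cells were found at 0 of these oligodendrocyte, astrocyte and endothelial genes, at 2 neuronal genes (Map2 and Snap25) and at 1 microglial gene (P2ry12), and in isolated cells at none of the 5 lists' genes. HA peaks were found at Cnp, Gja1, Slc1a3, Map2, Snap25, Tubb3 and P2ry12, and Pol II peaks at Cnp, Slc1a3, Map2 and Tubb3. Over all genes, Qki-5 peaks were found at 46.3% in differentiated and 26.4% in isolated cells, and PPARb peaks at 42.1% and 5.01%. HA and Pol II peaks were found at 46.5% and 36.4%.

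The stretches below show the DNA at the starts of 6 genes that the results turn on, from 200 bases before the annotated start to 30 bases from it, read 5′ to 3′ on the gene's strand from RefSeq promoter sequences of GRCm38.p6, the build of the files (mm10). The first 5 were chosen for tall peaks that overlap the stretch, among the genes with a promoter entry, and each line says which. Capitals mark matches on either strand to GGGCGG (the Sp and Klf family), CCAAT (known for NF-Y), TATAAA (the core promoter element), CCGGAAGT (the ETS family), GCATGCGC (NRF1), AAGATGGCG (YY1) or AGGTCA (the nuclear receptor hexamer). A match is a description of the letters and not a shown site of binding.
Polr3k, chr2:181864160-181864389, plus strand, tallest Qki-5 peak in differentiated cells: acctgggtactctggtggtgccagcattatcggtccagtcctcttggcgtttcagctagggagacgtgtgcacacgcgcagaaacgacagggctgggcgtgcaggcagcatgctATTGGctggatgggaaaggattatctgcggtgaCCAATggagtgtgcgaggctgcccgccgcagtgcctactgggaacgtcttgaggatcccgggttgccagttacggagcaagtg
Polr3c, chr3:96727410-96727639, minus strand, tallest PPARb peak in differentiated cells: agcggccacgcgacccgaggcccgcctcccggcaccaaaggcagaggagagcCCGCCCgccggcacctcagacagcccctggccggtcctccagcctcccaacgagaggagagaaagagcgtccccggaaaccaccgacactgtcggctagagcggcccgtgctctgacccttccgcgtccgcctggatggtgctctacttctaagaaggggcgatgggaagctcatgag
Polr3f, chr2:144527545-144527774, plus strand, tallest HA peak touching such a stretch apart from that of Polr3c: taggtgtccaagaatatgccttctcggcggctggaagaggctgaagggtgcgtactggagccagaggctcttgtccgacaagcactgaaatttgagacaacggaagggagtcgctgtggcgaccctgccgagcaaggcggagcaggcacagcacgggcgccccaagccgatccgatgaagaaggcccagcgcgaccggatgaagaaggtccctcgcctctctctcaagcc
Polr2a, chr11:69758604-69758833, minus strand, tallest Pol II peak: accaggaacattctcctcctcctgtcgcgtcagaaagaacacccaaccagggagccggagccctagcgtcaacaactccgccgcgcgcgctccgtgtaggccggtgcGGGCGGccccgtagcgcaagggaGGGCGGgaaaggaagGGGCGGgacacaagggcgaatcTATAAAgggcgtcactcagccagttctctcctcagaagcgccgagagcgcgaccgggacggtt
Med4, chr14:73509849-73510078, plus strand, tallest PPARb peak in isolated cells, tied with Polr2i at 8.7: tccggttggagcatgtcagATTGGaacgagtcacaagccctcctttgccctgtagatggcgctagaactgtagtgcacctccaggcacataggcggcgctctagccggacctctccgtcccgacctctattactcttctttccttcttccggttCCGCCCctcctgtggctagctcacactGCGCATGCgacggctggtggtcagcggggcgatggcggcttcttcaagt
Med10, chr13:69809682-69809911, plus strand, internal start of the gene with no boundary peak: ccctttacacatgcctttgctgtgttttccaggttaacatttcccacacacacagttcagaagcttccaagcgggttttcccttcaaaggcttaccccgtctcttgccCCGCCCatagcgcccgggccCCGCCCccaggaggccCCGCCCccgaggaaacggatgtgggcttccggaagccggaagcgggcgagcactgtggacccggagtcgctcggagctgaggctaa
The Polr2a stretch held TATAAA with its first base 33 bases before the start and GGGCGG at 93, 70 and 55 bases before it. The Polr3k stretch held CCAAT in both orientations, at 86 and 53 bases before the start, and that of Polr3f held none of these letters. The Med4 stretch held the NRF1 letters at 19 bases before the start, and the internal Med10 start had 3 copies of GGGCGG on the other strand.

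Qki-5 peaks stood at 54 of the 58 genes in differentiated cells (93.1%, exact 95% interval 83.27 to 98.09), where 46.3% of all protein-coding genes had one. PPARb peaks stood at 50 (86.21%, interval 74.62 to 93.85), against 42.1% of all genes. HA peaks stood at 56 (96.55%, interval 88.09 to 99.58), against 46.5%, and Pol II peaks at 41 (70.69%, interval 57.27 to 81.91), against 36.4%. In isolated cells Qki-5 peaks stood at 39 (67.24%, interval 53.66 to 78.99), against 26.4%, and PPARb peaks at 11 (18.97%, interval 9.866 to 31.41), against 5.01%. All intervals cover counting error only. The members' share lay above the share of all genes in each of the 6 libraries. The members were chosen with earlier results known, so the intervals give no test of that difference.

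The RNA polymerase genes were bound in 28 of 28 cases by Qki-5, 26 by PPARb, 27 by HA and 23 by Pol II in differentiated cells, and 22 and 4 had Qki-5 and PPARb peaks in isolated cells. Of the 30 Mediator genes, 26, 24, 29 and 18 had these peaks in differentiated cells, and 17 and 7 in isolated cells. The RNA polymerase share was higher than the Mediator share for Qki-5, PPARb and Pol II, about level for HA and lower for PPARb in isolated cells. The intervals of the 2 sets overlapped in all 6 libraries, but they cover counting error only, and the difference between the sets was not tested.

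**Figure D1:**
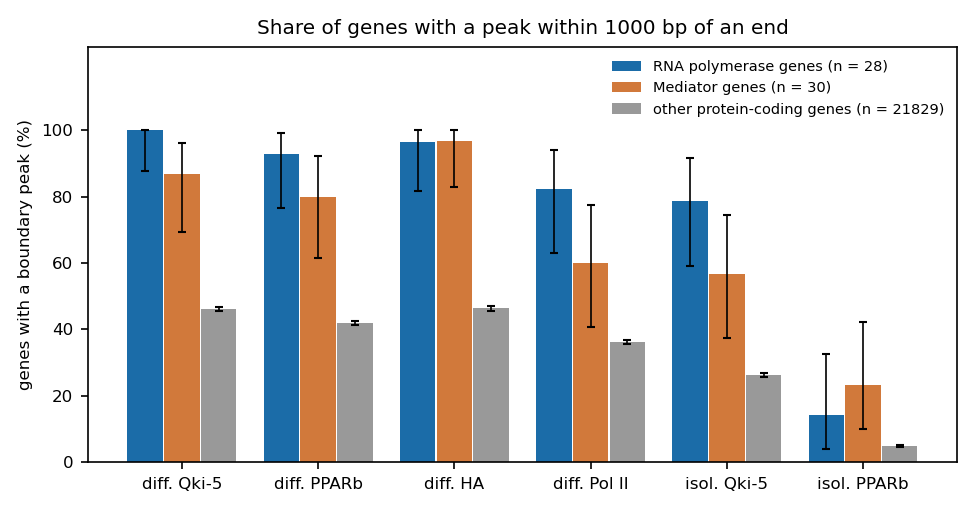
The bars give the percentage of genes with a boundary peak in each library (diff., differentiated cells; isol., isolated cells) for the 28 RNA polymerase genes, the 30 Mediator genes and the 21829 other protein-coding genes, with exact 95% binomial intervals as error bars. Both gene sets stand above the other genes in all 6 libraries, and the RNA polymerase bar for Qki-5 in differentiated cells is at 100.0%.

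Most of the 58 genes carried peaks of several antibodies at once. Qki-5 and PPARb were both found at 50 genes in differentiated cells (40.0% of all genes), so every one of the 50 genes with a PPARb peak also had a Qki-5 peak. Most genes with PPARb did so over all genes as well, 8763 of 9206. All 4 antibodies were found together at 38 (65.52%; 31.8% of all genes). Of the 54 genes with Qki-5, 50 had PPARb, and 86.4% of all genes with Qki-5 did. All 50 genes with PPARb had an HA peak, and 95.4% of all genes with PPARb did. Qki-5 in both kinds of cell was found at 38 of the 58 genes (25.1% of all genes), Qki-5 with PPARb in isolated cells at 10 (4.61%), all 6 peaks at 4 (3.83%), and no peak at 1 (48.4%). The 4 genes in all 6 lists were Polr2c, Polr2i, Polr3c and Med17. Each of them has an end of another protein-coding gene within 1000 bp of its own, so these peaks count for both genes. Over all genes, 7.335% of those with such a neighbour and 2.679% of those without had all 6 peaks. The largest class was the 28 genes found in 5 lists (48.28%, and 17.07% of all genes), followed by 18 genes in 4 (31.03% and 15.44%).

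Where Pol II had a peak, the share with both factors was close to that of all such genes: 38 of 41 (92.68%), against 89.0%. The 3 exceptions were Med7, Med29 and Polr2g. Where Pol II had none, both factors were still found at 12 of 17 genes (70.59%), against 12.1% of all genes without a Pol II peak. They included Polr2f, Polr3gl, Polr3k, Med4, Med11, Med12, Med19, Med20, Med27, Med30 and Med31. At Polr3gl the factors stood at opposite ends of the gene, with the Qki-5 centre 57 bp before the start and the PPARb centre 634 bp from the far end. The other 5 were Polr1e, Med10, Med18, Med24 and Med25.

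**Figure D2:**
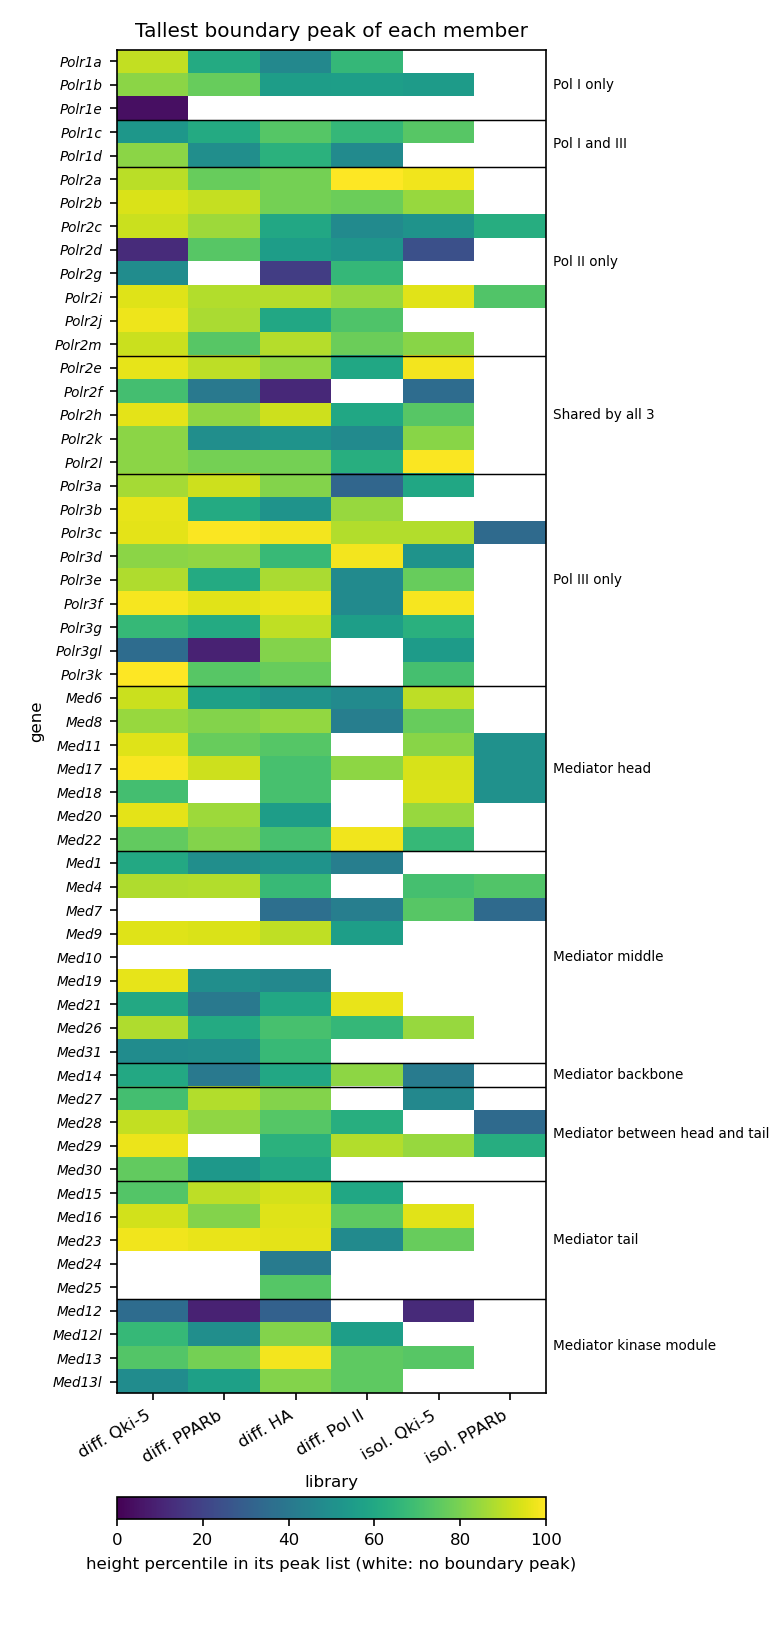
Each row is 1 gene, grouped by role in its complex and with 1 gene left out, and each column a library; the colour gives the height percentile of the gene's tallest boundary peak within that library's list, and white means no boundary peak. The first 3 columns are nearly filled, the last has few filled cells, and Polr3c and Polr3f are bright across the first 3 columns.

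Among the RNA polymerase I genes, Polr1a, which encodes the largest, catalytic subunit, had a Qki-5 height of 19.4, a PPARb height of 10.7, an HA height of 12.7 and a Pol II height of 10.4 in differentiated cells, and no peak in isolated cells. Sets of 4 heights below keep this order. Polr1b, for the second-largest subunit, had heights of 16.6, 12.9, 14.3 and 9.24, and an isolated-cell Qki-5 height of 9.62. Polr1e had a single peak, for Qki-5 at 6.08 (exact Poisson interval 3.037 to 10.89), the lowest Qki-5 height of the set. This height lies under the 6.638 of the caller's threshold in that library, and the gene is among the 28 counted as bound by Qki-5. In differentiated cells the nearest PPARb peak lay 6179 bp away and the nearest HA peak 6234 bp away, and in isolated cells the nearest Qki-5 and PPARb peaks lay 6143 and 6095 bp away. Of the subunits shared by RNA polymerases I and III, Polr1d had heights of 16.6, 9.35, 15.8 and 8.44, and lacked isolated-cell peaks. Polr1c had 11.1, 10.7, 18.2 and 10.4, and 11.9 for Qki-5 in isolated cells. Neither kind of gene had a PPARb peak in isolated cells.

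The 8 genes grouped here with RNA polymerase II alone, Polr2m among them, all had Qki-5, HA and Pol II peaks in differentiated cells, and 7 had PPARb. Polr2a encodes the largest subunit, whose tail repeat is what the Pol II antibody recognises. Its Pol II peak had a height of 102.9 (exact Poisson interval 90.67 to 116.3) and was the tallest of the 13270 in that list, 65.09-fold over input by the authors' caller. The peak lies at chr11:69758452-69758652 with its centre 81 bp after the annotated start, and partly within the Polr2a stretch shown above. The next tallest Pol II peak anywhere had a height of 82.8, and the next tallest at one of the 58 genes was 30.1, at Polr3d. The other peaks of differentiated cells at Polr2a ranked lower in their lists: Qki-5 stood at 18.8, PPARb at 12.9 and HA at 19.8, and in isolated cells Qki-5 stood at 19.2, rank 175 of 8380, with no PPARb peak. Its Qki-5 and PPARb centres lay 72 and 86 bp before the start, on the other side of it from Pol II.

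Polr2b, for the second-largest Pol II subunit, had heights of 21, 16.5, 19.8 and 12.1, and an isolated-cell Qki-5 height of 13.7. Polr2j, an assembly subunit, had the tallest Qki-5 peak of this group, with 23.8, and 15.1, 15.1 and 11.3 for the other antibodies, but no peak in isolated cells. Polr2d, a subunit of the stalk, had the lowest, a Qki-5 height of 6.64 beside 12.5, 14.3 and 8.84 for the other antibodies, and 6.87 for Qki-5 in isolated cells. Its Qki-5 height stood at the 12.23 percentile of its list and its PPARb height at the 74.04 percentile. Polr2g, the other subunit of the stalk, was the only gene of the group without a PPARb peak; its Qki-5 height was 10.5. Polr2c had 19.9, 14.7, 15.1 and 8.44 in differentiated cells, and Qki-5 and PPARb heights of 9.16 and 8.16 in isolated cells. Polr2i had 21.6, 15.6, 23.8 and 13.7, and 17.4 and 8.7. These last 2 genes are the group's members found in all 6 lists.

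The 5 subunits common to all 3 polymerases had Qki-5 and PPARb peaks without exception, and Qki-5 in isolated cells as well. Polr2e was highest for Qki-5 in this group, with heights of 22.7, 16, 21.4 and 9.65, and 19.7 for Qki-5 in isolated cells. Polr2f was lowest, with 13.8, 8.46 and 7.92, no Pol II peak, and 7.79 in isolated cells. Polr2l had the tallest isolated-cell Qki-5 peak of all 58 genes, at 22 (interval 16.21 to 29.15), rank 60 of 8380 in that list. In differentiated cells its Qki-5 height was 16.6 (interval 11.2 to 23.69), and the heights of the 2 libraries were not compared. The gene shares an end region with Cd151 and Tspan4. No gene of this group had a PPARb peak in isolated cells.

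All 10 genes of RNA polymerase III subunits had Qki-5, PPARb and HA peaks in differentiated cells, 7 had Pol II, and 9 had Qki-5 in isolated cells. Polr3k, for a small subunit that acts in RNA cleavage and termination, had the tallest Qki-5 peak, at 29.9, with a PPARb height of 12.5, an HA height of 19, no Pol II peak, and 11.5 for Qki-5 in isolated cells.

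Polr3c and Polr3f encode parts of the same initiation subcomplex. Polr3c had the set's tallest PPARb peak at 24, beside Qki-5 at 22.1, HA at 34.1 and Pol II at 14.9, and its isolated-cell Qki-5 and PPARb heights were 14.7 and 7.07. Polr3f had 26, 18.7, 30.9 and 8.44, and 20.6 for Qki-5 in isolated cells. Polr3g and Polr3gl encode alternative forms of the third part. Polr3gl had the lowest Qki-5 and PPARb heights of the RNA polymerase III group, 8.85 and 5.79, but 20.6 for HA, and 9.62 for Qki-5 in isolated cells. Polr3g had 13.3, 10.7, 24.6 and 9.24, and 10.5 in isolated cells. Of the catalytic subunits, Polr3a had 17.7, 16.9, 20.6 and 7.23, the last being the lowest Pol II height of the 41 bound members, and 10.1 for Qki-5 in isolated cells. Polr3b had 22.7, 10.7, 13.5 and 13.7, its HA height being the lowest of the 10 genes, and no peak in isolated cells.

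The 7 Mediator head genes all had Qki-5 peaks in both kinds of cell, and 6 had PPARb in differentiated cells. Med17, a core subunit of the head, was highest, with 26.6, 16.9, 17.4 and 13.3, and isolated-cell Qki-5 and PPARb heights of 16.5 and 7.61. Med18 was lowest for Qki-5 in differentiated cells, with 13.8, no PPARb or Pol II peak and 17.4 for HA. In isolated cells its Qki-5 and PPARb heights were 16.9 and 7.61, so its PPARb peak was found in isolated cells and not in differentiated ones. Med11 had 21.6, 12.9 and 18.2, no Pol II peak, and 13.3 and 7.61. Med22 had a Pol II height of 28.5, the third-tallest of the set, and shares its end region with the ribosomal protein gene Rpl7a, whose end lies 43 bp away.

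Of the 9 genes of the middle of Mediator, 7 had Qki-5 and PPARb and 5 had Pol II in differentiated cells (40.0% and 36.4% of all genes). In isolated cells 3 had Qki-5 (26.4% of all genes). Med1, the subunit known for binding nuclear receptors, had modest heights of 12.2, 9.35, 13.5 and 8.04 and no boundary peak in isolated cells, where its nearest Qki-5 peak lay 2540 bp away. Med19 was highest for Qki-5, with 22.7, 9.35 and 12.7 and no Pol II peak. Med31 was lowest, with 10.5, 9.35 and 16.6 and no Pol II peak, and neither had a peak in isolated cells. Med9 ranked among the 5 highest for both factors, with heights of 21.6, 17.8, 24.6 and 9.24. Med4 had 18.3, 15.6 and 16.6, no Pol II peak, and 11.5 and 8.7 in isolated cells. Med7 was unlike the rest: it had no Qki-5 or PPARb peak in differentiated cells, HA and Pol II heights of 11.1 and 8.04, and in isolated cells Qki-5 and PPARb heights of 11.9 and 7.07. Med21 had the fourth-tallest Pol II peak of the set, at 22.9, beside Qki-5 and PPARb heights of 12.2 and 8.46.

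Med10 was the 1 gene with no boundary peak in any library. RefSeq gives it an outer start and an internal one, and the internal one, whose sequence is printed above, lies 2 bp from the centre of a Qki-5 peak at chr13:69809784-69809984 with a height of 11.6. Differentiated cells also had a PPARb peak of 7.12 and a Pol II peak of 8.44 inside the gene, with centres 6266 and 6199 bp from the nearer gene end. Its outer promoter had a GC content of 47.33% and a CpG ratio (observed over expected) of 0.2392, the lowest of the members' promoters, and the internal one had 59.0% and 0.769. In the Qki-5, PPARb and Pol II libraries of differentiated cells the zero for Med10 thus follows from the use of gene ends. The HA list and both isolated-cell lists held no peak within the gene.

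Med14, the backbone of Mediator, had 12.2, 8.46, 15.1 and 13.3, and 8.24 for Qki-5 in isolated cells. Among the genes between head and tail, Med29 was highest for Qki-5, with 23.2, no PPARb peak in differentiated cells, HA and Pol II heights of 15.8 and 14.9, and isolated-cell heights of 13.7 and 8.16. Med27 was lowest, with 13.8, 15.6 and 20.6, no Pol II peak, and 8.7 for Qki-5 in isolated cells. Med28 had 19.4, 14.2, 18.2 and 10 and, in isolated cells, 7.07 for PPARb without a Qki-5 peak. It is the 1 member with PPARb and not Qki-5 in isolated cells.

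The tail was split. Med23, a target of several signal-driven activators, had 24.3, 19.6, 29.3 and 8.44, and 12.4 for Qki-5 in isolated cells, and ranked among the 5 highest for both factors. Med15 was the lowest of the 3 tail genes with Qki-5, with 14.4, 16, 26.9 and 9.65. Med24 and Med25 had an HA peak alone, of 11.9 and 18.2. Med24 had 3 Qki-5, 4 PPARb and 5 HA peaks within its span, and for Med25 the nearest Qki-5 peak, of 17.7, lay 3383 bp away. In the kinase module all 4 genes had Qki-5, PPARb and HA peaks. Med13, which joins the module to the core, was highest for Qki-5, with 14.4, 13.4, 34.1 and 11.7, and 11.9 for Qki-5 in isolated cells, but its Qki-5 and HA centres lay 782 and 800 bp upstream of the start. Med12, which activates the kinase, was the lowest, with 8.85, 5.79 and 10.3, no Pol II peak, and 5.95 in isolated cells. Its paralogue Med12l had 13.3, 9.35, 20.6 and 9.24, and no peak of either factor in isolated cells within its 313028 bp span.

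At the edge of the 1000 bp window, the boundary peaks farthest inside it were the Pol II peaks of Med12l at 937 bp (height 9.24) and Med14 at 896 bp (13.3). The nearest ones left out were a Qki-5 peak of isolated cells 1745 bp from Med9 (7.79) and a PPARb peak of isolated cells 1837 bp from Med26 (10.9).

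The median Qki-5 height in differentiated cells was 18 over the 54 bound members and 14.9 over all genes with a boundary peak. The medians were 12.9 and 11.6 for PPARb. HA gave 17.8 and 17.4, and Pol II gave 10 and 10.4. In isolated cells Qki-5 gave 12.4 and 11, and PPARb gave 7.61 and 8.16. A median member peak held 32.54 tags in the Qki-5 library and 13.99 in the PPARb library of isolated cells, so single heights carry wide counting intervals, as those printed above show. A height among the highest decile of boundary peaks was found at 10 of 54 members for Qki-5 (10.15% of bound genes). It was found at 7 of 50 members with PPARb (11.21%), 7 of 56 with HA (10.96%) and 4 of 41 with Pol II (10.33%), and in isolated cells at 8 of 39 with Qki-5 (11.36%) and 1 of 11 with PPARb (10.85%). Over the authors' input, the members' peaks had median folds of 15.75, 10.98, 15.66 and 9.92 in the order above, and Qki-5 and PPARb folds of 7.08 and 5.75 in isolated cells. The same medians over all bound genes were 13.12, 10.56, 16.04, 10.68, 6.52 and 5.75.

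Qki-5 and PPARb heights moved together across members (Spearman's rho 0.63 over 50 genes, and 0.67 over 8763 genes of the genome). PPARb and HA heights had a rho of 0.58 over 50 members and 0.59 over 8787 genes, and Qki-5 and HA heights 0.27 over 53 members and 0.5 over 9387 genes. Qki-5 and Pol II heights moved together little (0.08 over 40 members and 0.24 over 7605 genes), and the value was also 0.08 without Polr2a. Qki-5 heights in the 2 kinds of cell had a rho of 0.61 over 38 members and 0.57 over 5485 genes. These are descriptions across genes, which are not independent replicates. The libraries of differentiated cells share 1 input, and the points share library depth and the base composition of each promoter.

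**Figure D3:**
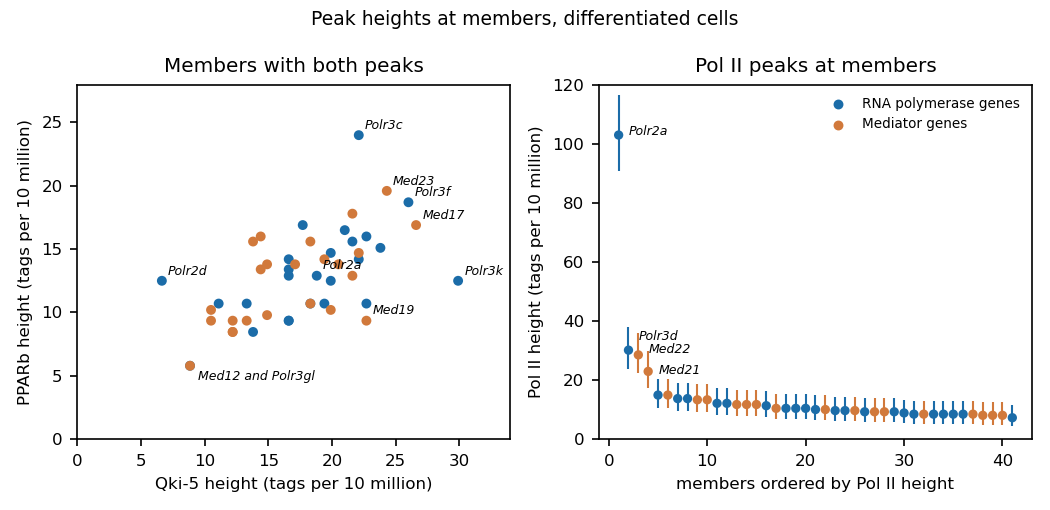
The left panel plots PPARb height against Qki-5 height, both in tags per 10000000, for members with both peaks in differentiated cells, 1 gene left out; the right panel plots the Pol II heights of 41 members in descending order with exact 95% Poisson intervals. Polr3c and Med23 lie at the upper right of the left panel, Med12 and Polr3gl share the lowest point at 8.85 and 5.79, and Polr2a at 102.9 stands apart in the right panel.

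The peaks sat at gene starts. Of the members with a known strand, the tallest Qki-5 peak lay at the start end in 45 of 45, PPARb in 41 of 42, HA in 46 of 46 and Pol II in 34 of 34. Over all genes this share was 95.01% for Qki-5. Offsets were taken from the outer gene end on the start side. That end can differ from the start in the promoter entry, by 59 bp at Polr3c and 1559 bp at Med12l. Median offsets from this end were -35 bp (Qki-5), -22 bp (PPARb), 19.5 bp (HA) and 44 bp (Pol II), where negative is upstream, and -38 bp (Qki-5) and -42 bp (PPARb) in isolated cells. The same medians over all genes were 2, 11, 54, 92, 1 and -14 bp. In genes with both peaks at the start, the Pol II centre lay a median of 47 bp downstream of the Qki-5 centre over 33 members and 63 bp over 5921 genes. All of these distances are shorter than the 200 bp width of a peak.

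**Figure D4:**
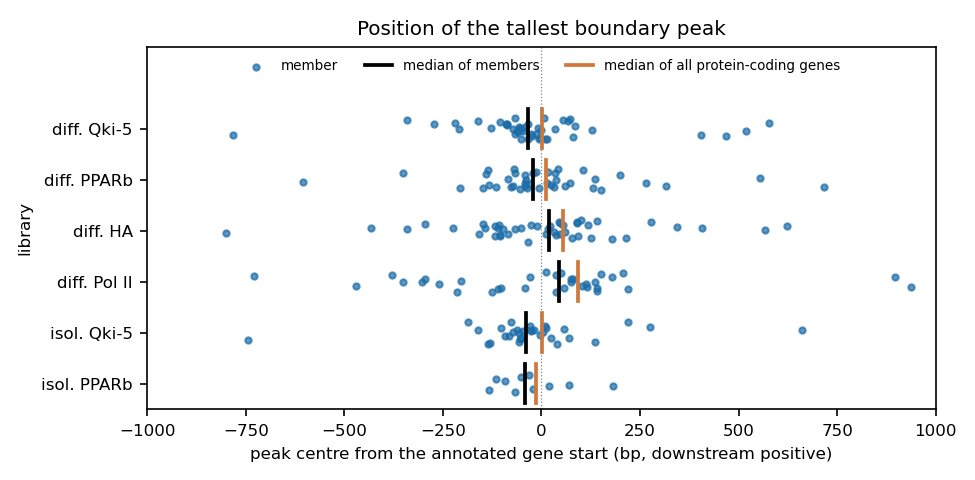
Each point is a member's tallest boundary peak, placed by the distance in bp of its centre from the outer gene end on the start side, for members with a known strand. Black and orange bars are the medians of the members and of all protein-coding genes. The points crowd near 0, the Qki-5 medians of members lie upstream, and the Pol II median lies downstream at 44 bp.

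Peaks of different antibodies often overlapped in place by at least 1 bp. Of the 56 Qki-5 boundary peaks of members in differentiated cells, 45 overlapped a PPARb peak (80.36%, and 73.33% for all genes), 50 an HA peak (89.29% and 76.02%) and 33 a Pol II peak (58.93% and 52.79%). Of the 39 Qki-5 boundary peaks in isolated cells, 34 overlapped a Qki-5 peak of differentiated cells (87.18%, and 84.27% for all genes).

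The isolated cells gave fewer peaks at these genes, as they did elsewhere. Of the 54 members with Qki-5 in differentiated cells, 38 had it in isolated cells (70.37%), where 54.1% of all such genes did. In the other direction 38 of 39 members with Qki-5 in isolated cells had it in differentiated cells, where 94.9% of all such genes did, and the exception was Med7. The isolated-cell list held 8380 Qki-5 peaks with 0.8486% of tags in peaks, against 30179 and 3.662% in differentiated cells. The cells also differ in strain, passage and introduced PPARb, and these cannot be told apart from the cell kind. The 11 members with PPARb in isolated cells included Polr2c, Polr2i, Polr3c, Med4, Med7, Med11, Med17, Med18, Med28 and Med29. The heights of the genes named here ran from 7.07 to 8.7, close to the threshold of 7.069 in that library.

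Shared end regions touch these counts. Another protein-coding gene ended or started within 1000 bp of an end of 30 of the 58 genes (51.72%, interval 38.22 to 65.05), which was so for 24.79% of all genes, and a peak there counts for both. Such neighbours include Rnf115 at 99 bp from Polr3c and Fbxo10 at 31 bp from Polr1e. Among the 28 members with no such neighbour, 25 had Qki-5 (89.29%), 23 PPARb, 27 HA and 21 Pol II in differentiated cells, and 19 had Qki-5 in isolated cells. Of all genes with no such neighbour, 37.88%, 34.31%, 38.56%, 29.21% and 20.19% did. Of the 30 members with such a neighbour, 29 had Qki-5, 27 PPARb, 29 HA and 20 Pol II in differentiated cells. In isolated cells 20 had Qki-5. Of all genes with such a neighbour, more were bound: 71.97%, 65.59%, 70.53%, 58.02% and 45.3% in that order. These members' Pol II share was 66.67% (interval 47.19 to 82.71), the nearest of these shares to that of all such genes, and the difference was not tested. PPARb in isolated cells was found at 9 of 30 members with a neighbour and at 2 of 28 without, against 9.252% and 3.615% of all genes.

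The members' promoters were rich in CpG. From 250 bases before the start to 50 bases from it, 48 members with a RefSeq promoter entry had a median GC content of 59.33% and a median CpG ratio of 0.8485, against 56.33% and 0.5772 over 17492 genes. The ETS letters CCGGAAGT were present in 8 of the 48 (16.67%, against 5.277% of all promoters), and the NRF1 letters GCATGCGC in 5 (10.42% against 3.607%). GGGCGG was present in 62.5% against 46.32%, CCAAT in 33.33% against 39.2%, TATAAA in 10.42% against 13.34%, AGGTCA in 20.83% against 14.45% and the YY1 letters in 0 against 1.915%. AGGTCA repeated after 1 base, the element that PPAR with its partner is known to bind, was in 0 of the 48 members. Only 9 of all 17492 promoters held these exact letters (0.05145%), so a count of 0 among 48 says little. Looser forms of the element were not searched. The Quaking RNA element ACTAAC or ACTAAT, looked for in the same DNA, was in 8.333% against 10.23%. The part of base composition in the members' share of bound genes was not tested.

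Other genes of transcription that are not members were bound about as often, apart from PPARb in isolated cells. Of 73 such genes, 68 had Qki-5 (93.15%), 66 PPARb (90.41%), 69 HA (94.52%) and 53 Pol II (72.6%) in differentiated cells. In isolated cells 47 had Qki-5 (64.38%) and 9 PPARb (12.33%). All 12 genes of Pol II pausing and elongation, such as Cdk9, the kinase of the elongation factor P-TEFb, and Nelfa, a subunit of the pausing factor NELF, had both factors in differentiated cells. Of 31 genes of Pol II general factors 27 had both, and of 16 RNA polymerase III factor genes 15 did, all but Snapc3. Of 7 RNA polymerase I factor genes 5 did, without Taf1a and Ubtf. All 4 genes of the mitochondrial polymerase and its factors, Polrmt, Tefm, Tfam and Tfb2m, had both. Of the partners of the Mediator kinase module, Cdk8 and Ccnc had both factors, and Cdk19 had Qki-5 without PPARb. The shares over the 73 genes lie close to those of the 58 genes, except for PPARb in isolated cells, at 12.33% against 18.97%. The difference between the 2 sets was not tested.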

How the data were processed

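The data are 6 ChIP-seq peak lists, 1 per antibody library, with 2 input libraries known only from the caller's ratios. Build mm10 and, among other tools, Bowtie 1.2.2 and HOMER 4.10.1 are named per the submitters' processing notes. Per the file headers, the authors called peaks with HOMER at a false discovery rate of 0.001, at least 4-fold over input. The normalized tag count, called height here, is a signal the authors scaled to 10000000 tags, per the file headers. Fold over input is the authors' ratio as their caller wrote it. The deposited total tags are counts in some lists and scaled to the input's depth in others, so tag counts were recomputed from height and library depth.

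Genes were placed by a RefSeq table of GRCm38.p6 (equal to mm10 in coordinates), with strand from its promoter sequences (48 of the 58 members, 17492 genes). Distances of boundary peaks from a gene's start used the outer gene end on that strand. The printed stretches, motifs and base composition used the start in the promoter entry. Members without an entry include Med8, Med23, Med24, Med30, Polr2d, Polr2g, Polr2k, Polr3a and Polr3d. The values of 1 member are not reported here, though it stays in the counts. Shares have exact 95% Clopper-Pearson intervals and heights exact 95% Poisson intervals, and both cover counting error only. Motifs were searched on both strands with regular expressions in Python 3.11.15, with pandas 2.3.3, NumPy 2.4.6, SciPy 1.17.1 and matplotlib 3.10.9. The peak assignment was tested on simulated peaks with known positions. The members and lists were chosen with earlier results of these data known. Genes given in full were the largest subunits, the highest and lowest for Qki-5 in each role group, the 5 ranking highest for both factors, and all with a PPARb peak in isolated cells, with 6 lists or with none. Other genes named with single values, such as Polr2g, Polr2l, Polr3g, Med21, Med22, Med24, Med25 and Med12l, were picked after their values were seen.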

Additional observations from a re-analysis of the deposited data

How the results depend on the processing

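Of 129 values recomputed under 10 alternatives, 106 stayed within a factor of 1.5 of those reported and 23 moved further. Sizeable falls lie within that factor. At 8-fold over input, 36 members had PPARb in differentiated cells (28.61% of all genes), against 50 as reported. Where the peaks had to overlap each other, 27 members had all 4 (21.01% of all genes), against 38. With only the 2000 tallest peaks of each list, 17 members had Qki-5 (7.036% of all genes) and 5 PPARb (4.012%) in differentiated cells. HA stood at 6 (4.455%) and Pol II at 6, or 10.34% of members against 8.489% of all genes. In isolated cells 19 had Qki-5 (9.476%). Qki-5 with PPARb stood at 5 (2.344%) and all 4 at 1 (0.265%) in differentiated cells. The median heights were then 19.6 (PPARb), 32.5 (HA) and 25.7 (Pol II). With peaks at least 8-fold over input, 12 members had Qki-5 (9.266% of all genes) and 2 PPARb (1.174%) in isolated cells. Both stood at 1 there (0.859%), and all 4 at 25 in differentiated cells (15.43%). Without the genes that share an end region, 28 members remain, of which 25 had Qki-5, 23 PPARb, 27 HA, 21 Pol II, 23 both factors and 19 all 4 in differentiated cells, and 19 Qki-5, 2 PPARb and 2 both in isolated cells. Of all genes without a shared end region, 32.28% had both factors and 25.26% all 4 in differentiated cells, and 3.305% both in isolated cells. The members' counts in these settings fall by construction, since fewer peaks or genes enter. The members' share stayed above that of all genes in 10 of 10 settings, the reported one included, for each of the 9 counts. At its lowest that share was 1.724%, which is 1 gene, for both factors in isolated cells and for all 4 in differentiated cells. The median height at members was above that of all genes in 8 of 9 settings (Qki-5), 9 (PPARb), 7 (HA) and 1 (Pol II) in differentiated cells, and in 9 (Qki-5) and 0 (PPARb) in isolated cells.

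No paired analysis was possible because each group had 1 library. No replicate could be left out, so the spread between cultures or animals is unknown. Boundary peaks near the caller's threshold, among them 10 of the 11 PPARb peaks in isolated cells, rest on few tags. A missing peak there sets no limit on binding below that threshold. A peak in a shared end region cannot be assigned to 1 gene.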
